A study of Mus musculus with 15 samples.

Results

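The genes described here are 10 fast fibre contractile and calcium genes, measured by RNA sequencing in mouse plantaris muscle. They were chosen by name from the 20406 genes listed, and all 10 were listed and tested in every library. They code for the fast troponins (Tnnt3, Tnni2, Tnnc2), the fast regulatory light chain of myosin (Mylpf), fast myosin-binding protein C (Mybpc2), the Z-disc proteins alpha-actinin-3 (Actn3) and myozenin-1 (Myoz1), the fast calcium pump SERCA1 (Atp2a1), calsequestrin-1 (Casq1) and parvalbumin (Pvalb). The study took 15 libraries of plantaris, 3 in each of 5 groups. Group 6M_UT was untrained and sampled at 6 months of age, and 6M_PoW had run for 8 weeks on a progressively weighted wheel (PoWeR) from 4 months of age and was sampled at 6 months. Group 9M_UT was untrained and sampled at 9 months, and 9M_PoW+DT had trained for 8 weeks and then detrained for 12 weeks before sampling at 9 months. The fifth group, here 6M_POW_LD, held the libraries titled as trained replicates 4, 5 and 6 with LD identifiers, which the labels do not explain; it too was sampled at 6 months. All mice were males of the HSA-GFP line, controls included. In this line the human skeletal actin promoter drives a tetracycline-controlled activator, which in turn drives a green fluorescent histone in muscle fibre nuclei.

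Labels disagreed before any value was read. The treatment field calls the LD libraries sedentary although their titles call them trained, and it gives the opposite of the title for all 6 libraries of 9 months, so that 9 libraries are contradicted in all. Groups follow the titles. Exchanging the 9-month groups reverses the sign of every detraining value below. The identifiers of the 6-month, 9-month and LD libraries come from different series, so age and library series cannot be told apart, nor can LD status and library series. Library totals ran from 18865037 to 27688826 counts. Nothing in the labels says that the libraries of a group came from separate mice, so the spread behind each p-value may be technical.

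Fast fibres contract and relax quickly, and they carry their own versions of the thin filament switch and of the calcium machinery. When calcium binds troponin C, troponin I releases actin and the fibre contracts. The calcium pump then returns calcium to the sarcoplasmic reticulum, where calsequestrin holds it, while parvalbumin buffers calcium in the cytosol. The plantaris is a mainly fast muscle of the lower hind limb, and weighted wheel running in mice is known to move fast muscle toward more oxidative fibre types.

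The 10 genes took a large part of each library, at 4.97% to 6.70% of all counts. Levels between genes were compared per length, as CPM (counts per 1000000 counts after scaling by trimmed mean of M values, TMM) per kilobase of annotated exon. On that scale Atp2a1 was highest, at 6365 CPM per kb over the 15 libraries, followed by Tnnc2 at 5426, Tnnt3 at 5366 and Pvalb at 4592. Mylpf stood at 3483, Tnni2 at 2262, Actn3 at 1640 and Mybpc2 at 1003 CPM per kb. The 2 lowest were Casq1 at 843 and Myoz1 at 670 CPM per kb. The ranges of neighbours overlapped between libraries: Tnnc2 spanned 4632 to 6101 and Tnnt3 4616 to 6119 CPM per kb.

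The genes differed in how much they moved between libraries. Actn3 had the widest range, its highest library holding 2.68 times its lowest, and Mybpc2 was next at 1.92 times. Tnnc2 and Tnnt3 had the narrowest, at 1.32 and 1.33 times. Mylpf, Myoz1, Atp2a1 and Tnni2 spanned 1.38 to 1.43 times, and Casq1 and Pvalb 1.58 and 1.59 times.

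**Figure D1:**
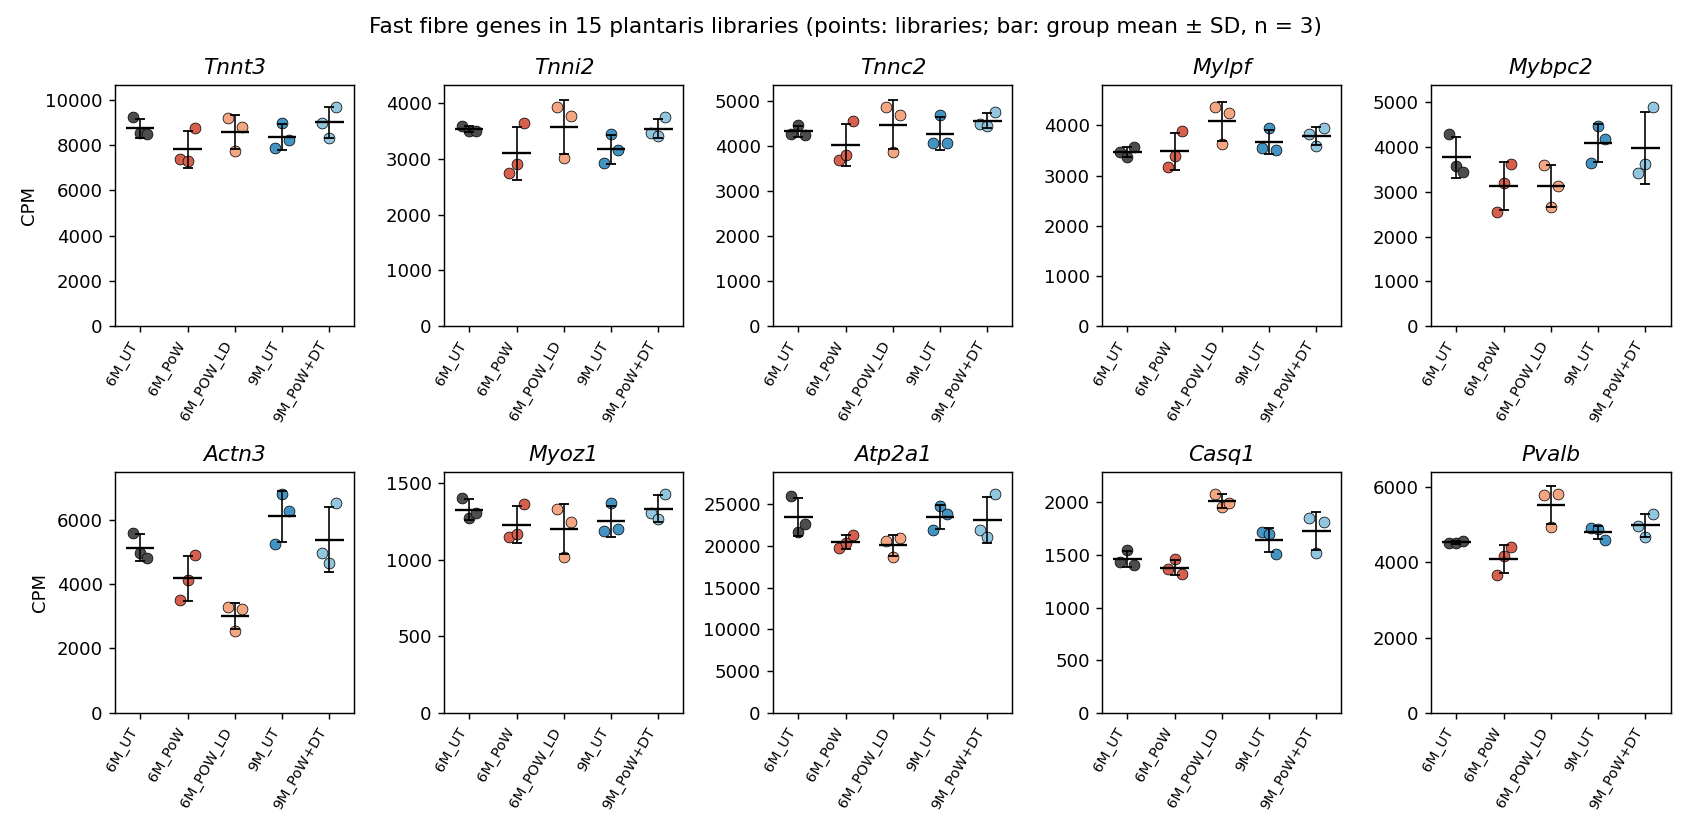
Levels of the 10 genes in CPM (vertical axes start at 0) for the 15 libraries by group; points are libraries, bars the group mean ± SD (n = 3). In the 3 LD libraries Actn3 lies below and Casq1, at 1956 to 2082 CPM, above all others; for Pvalb this holds in LD replicates 4 and 6, while LD replicate 5 lies within the 9-month range.

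On mm10, 5 of the 10 genes lie on chromosome 7, which holds 7.76% of the listed genes. Tnni2 (142441808 to 142444410) and Tnnt3 (142498836 to 142516009) lie on the plus strand, 54.4 kb apart. Atp2a1 (126445858 to 126463108, minus strand) and Mylpf (127208890 to 127214298, plus strand) lie 746 kb apart on the same chromosome, and Mybpc2 lies at 44501699 to 44524656 on the minus strand. The others are Casq1 on chromosome 1 (172209894 to 172219868), Tnnc2 on chromosome 2 (164777161 to 164779967), Myoz1 on chromosome 14 (20649107 to 20656540), Pvalb on chromosome 15 (78191114 to 78206400) and Actn3 on chromosome 19 (4861216 to 4877909), all on the minus strand. Exons of 4 members overlap exons of a gene on the other strand, and no source used here states whether counting used strand. Atp2a1 shares 763 bases with Rabep2 and Tnnc2 shares 592 bases with Ube2c. These partners stood at 136 to 206 CPM and at 21.2 to 32.3 CPM, far under the members. Casq1 and Mybpc2 share 156 and 192 bases with the noncoding genes Gm17224 and Gm44646, which stayed under 0.857 CPM.

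Promoter windows from 250 bases before to 50 bases after a start were held for 6 members in RefSeq (GRCm38.p6), with 7 windows in all: Casq1, Tnnc2, Mybpc2, Atp2a1, Mylpf and Pvalb. The windows were searched on both strands for the E-box CANNTG, its form CAGCTG (a subset of the E-box), the MEF2 core (CTA, any 4 bases, TAG), TATAAA, the MCAT motif CATTCC and the MEF3 motif TCAGGTT. E-boxes are bound by MyoD and related factors that switch on muscle genes. An E-box was in 6 of the 7 windows, beside 72.3% of 32841 windows of all genes, and CAGCTG was in 3 of the 7, beside 16.3%. CATTCC was in 1 window, that of Mybpc2, beside 14.7%. The MEF2 core in this form, TATAAA and TCAGGTT were in none of the 7, beside 3.69%, 13.6% and 4.07%. Other forms of a MEF2 site were not searched. The Pvalb sequence below holds ttattaatag, which differs from the searched core in its first base. The 40 bases around each CAGCTG (in capitals) are shown because this form was shared by the calcium store gene Casq1, the pump gene Atp2a1 and the light chain gene Mylpf; it lay 195 bases before the start in Casq1, 55 before it in Atp2a1 and 51 before it in Mylpf.
Casq1, chr1:172220068-172220107, minus strand: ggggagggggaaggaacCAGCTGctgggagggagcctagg
Atp2a1, chr7:126463106-126463145, minus strand: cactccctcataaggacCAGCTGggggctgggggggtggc
Mylpf, chr7:127211540-127211579, plus strand: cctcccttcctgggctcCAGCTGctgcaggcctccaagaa
The 250 bases before the start of Casq1 and Pvalb follow, with E-boxes in capitals, because these 2 genes moved together in the LD libraries described below. For Pvalb the start at the deposited gene's own end is shown, and none of the motifs searched was in its window.
Casq1, chr1:172219896-172220145, minus strand: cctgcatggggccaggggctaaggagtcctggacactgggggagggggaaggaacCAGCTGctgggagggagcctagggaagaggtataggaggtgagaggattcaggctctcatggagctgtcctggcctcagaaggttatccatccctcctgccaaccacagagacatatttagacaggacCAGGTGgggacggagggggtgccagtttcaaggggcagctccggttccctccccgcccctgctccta
Pvalb, chr15:78206401-78206650, minus strand: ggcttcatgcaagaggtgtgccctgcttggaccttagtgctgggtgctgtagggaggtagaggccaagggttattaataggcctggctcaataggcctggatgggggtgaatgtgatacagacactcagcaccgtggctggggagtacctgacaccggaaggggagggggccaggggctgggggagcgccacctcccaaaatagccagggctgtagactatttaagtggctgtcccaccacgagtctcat

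Trained muscle was compared with untrained muscle at 6 months to ask what 8 weeks of weighted running did to these genes. No member passed the test. Of the 10 genes 9 lay lower in the trained mice, and the median log2 fold change was -0.16, beside 0.0013 over all 14919 genes tested. Among abundant genes (mean log2 CPM of 8 or more) the medians were also below 0. They were -0.03 for 40 genes under 1.5 kb of exon, -0.04 for 83 of 1.5 to 3 kb and -0.12 for 252 longer ones. EdgeR's quasi-likelihood test with Benjamini-Hochberg adjustment called 0 of the 10, with 1 at an unadjusted p under 0.05, and DESeq2 and limma-voom also called 0 of them. Over all genes it called 0%, where DESeq2 called 112 genes and limma-voom 2, and 5.02% were lower in edgeR at an unadjusted p under 0.05.

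Among the thin filament genes, Tnni2, which codes for the inhibitory troponin subunit, held 3598, 3507 and 3503 CPM in the untrained and 2756, 2901 and 3639 CPM in the trained libraries. The first and second trained libraries were low, while the third lay above all untrained ones. Its log2 fold change was -0.19 ± 0.09 (SE, edgeR adjusted p = 0.531). Tnnt3, whose protein ties troponin to tropomyosin, held 9230, 8513 and 8472 CPM in untrained and 7376, 7308 and 8768 CPM in trained muscle, with the same trained library overlapping the untrained range. Its log2 fold change was -0.16 ± 0.08 (edgeR adjusted p = 0.575). Tnnc2, the calcium-binding subunit, held 4272, 4484 and 4254 against 3706, 3800 and 4559 CPM, again with replicate 3 at the top. The light chain gene Mylpf, at 3468 ± 98.7 CPM in untrained and 3486 ± 366 CPM in trained muscle (SD, n = 3), was the 1 gene not below 0, with a log2 fold change of 0.008 ± 0.079.

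The members with the largest differences were Actn3 and Mybpc2. Actn3, which codes for an actin crosslinker of fast fibre Z-discs, held 5596, 4968 and 4809 CPM in untrained and 3498, 4124 and 4896 CPM in trained libraries. Trained replicate 3 lay inside the untrained range and the other trained libraries below it. The log2 fold change was -0.30 ± 0.15 (edgeR adjusted p = 0.564). Mybpc2, whose protein tunes cross-bridges in fast fibres, held 4303, 3579 and 3440 CPM against 2554, 3204 and 3625 CPM, a log2 fold change of -0.27 ± 0.16. Myoz1, which tethers calcineurin and alpha-actinin at the Z-disc, stood at 1327 ± 69.0 and 1230 ± 120 CPM.

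Of the calcium genes, Atp2a1 and Pvalb were the 2 members whose trained libraries all lay below the untrained ones, where 8.28% of all genes did so. No member had all trained libraries above the untrained ones, where 7.89% of all genes did. Atp2a1 held 26010, 21684 and 22673 CPM in untrained and 19754, 20390 and 21374 CPM in trained libraries. It was the member with the smallest p (log2 fold change -0.19 ± 0.09, edgeR unadjusted p = 0.0477, adjusted p = 0.509). Pvalb held 4505, 4508 and 4573 CPM in untrained muscle, a narrow range, and 3675, 4170 and 4395 CPM in trained muscle. Its log2 fold change was -0.15 ± 0.07 (edgeR adjusted p = 0.530). Casq1 differed less, with 1436, 1549 and 1405 against 1368, 1458 and 1314 CPM (log2 fold change -0.08 ± 0.08).

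The lists around these genes did not pass either in the training comparison, where edgeR called 0 genes of any list. The list called other fast sarcomere genes also holds genes not particular to fast fibres, such as Acta1 and Tcap, and enzyme genes such as Eno3. Its 21 genes had a median log2 fold change of -0.08, with 14 below 0, 3 of them at an unadjusted p under 0.05 and 2 above 0 at that p. Tcap, the titin cap gene, averaged 2767 ± 242 CPM in untrained and 2031 ± 91.96 CPM after training (-0.45 ± 0.10, edgeR adjusted p = 0.160), and skeletal actin (Acta1) averaged 19201 ± 277 CPM in untrained and 23033 ± 1007 CPM after training (0.26 ± 0.07, adjusted p = 0.210). The fast IIx myosin gene Myh1 had a log2 fold change of 0.29 ± 0.10. Of the 25 genes of excitation-contraction coupling and the calcium store, 19 lay below 0, with a median of -0.13 and 8 at an unadjusted p under 0.05, all lower. The kinase gene Camk2b stood at -0.36 ± 0.07 (edgeR adjusted p = 0.118), the channel gene Tmem38a at -0.18 ± 0.07 and Asph at -0.27 ± 0.10. The 31 fibre type regulators had a median of 0.06, with Tbx15, a factor of glycolytic fibres, at -0.26 ± 0.10, the calcineurin subunit gene Ppp3r1 at -0.16 ± 0.06 and Eya4 at 0.23 ± 0.10.

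In bulk muscle, fewer fast fibres and less of a transcript per fibre cannot be told apart. Marker transcripts of other cells differed in their sums between these groups, though edgeR called none of these genes. The 5 fibro-adipogenic markers summed to 298 to 317 CPM in untrained and 399 to 498 CPM in trained libraries. The 5 endothelial markers summed to 225 to 268 and 287 to 321 CPM, and the 5 macrophage markers to 32.9 to 34.3 and 45.2 to 64.0 CPM. No gene of these lists was at 0 in any library. Whether cell content or transcript per cell differed was not tested. The 6 muscle fibre markers, 4 of which are also in the fast sarcomere list, summed to 86408 to 101077 and 84536 to 94531 CPM. Mitochondrial transcripts took 18.6% to 19.1% of untrained and 19.8% to 21.1% of trained libraries. The part of these in the member values was not tested.

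**Figure D2:**
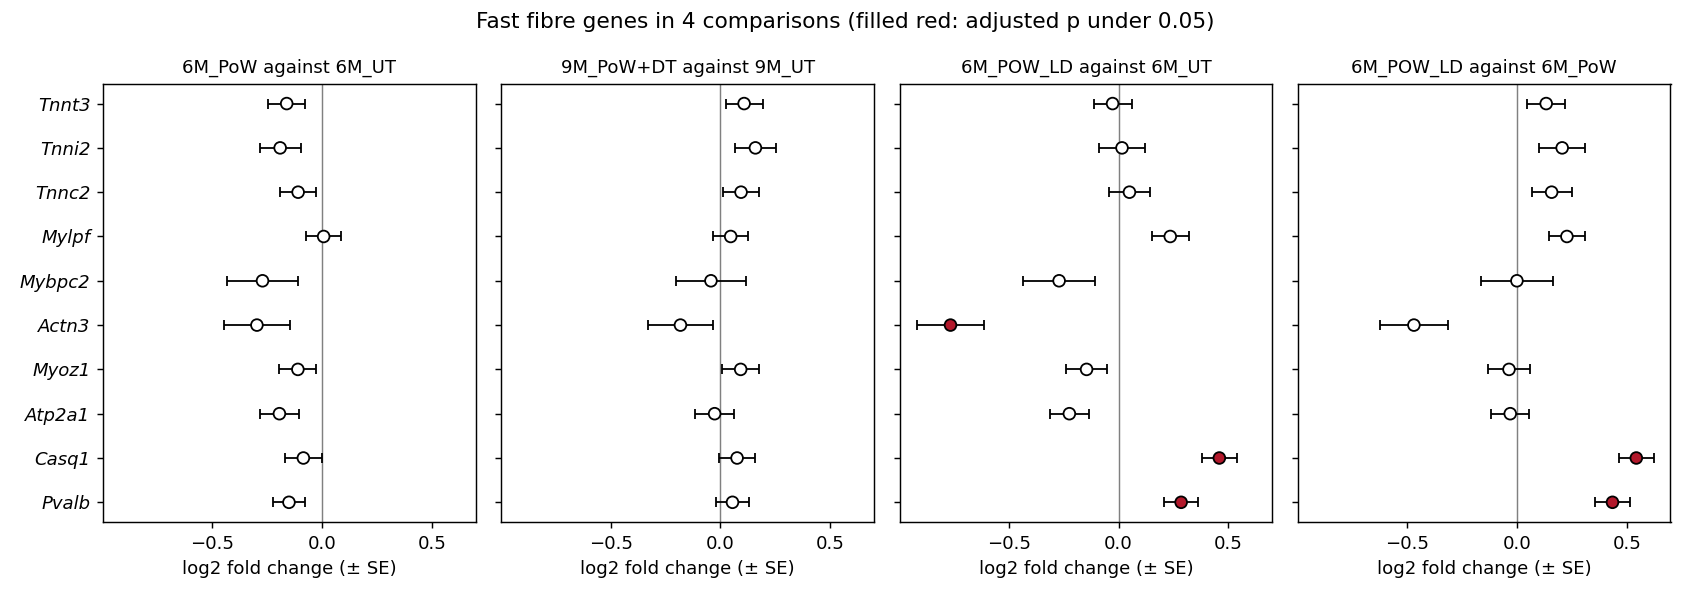
Log2 fold changes of the 10 genes with their standard errors in 4 comparisons; filled red points passed an adjusted p of 0.05 in edgeR and open points did not. The only filled points are Actn3, Casq1 and Pvalb against untrained libraries and Casq1 and Pvalb against trained libraries, all in the LD group; the LD and training panels share control libraries.

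Detrained muscle was compared with untrained muscle at 9 months to ask whether the genes differed 12 weeks after training had ended. No member passed, and the members lay on both sides of 0. The median log2 fold change was 0.07, with 7 of 10 above 0, beside 0.005 over all genes. EdgeR called 0 of the 10 and none had an unadjusted p under 0.05, where 6.52% of all genes did. DESeq2 and limma-voom called 0 of them, and edgeR called 0.0201% of all genes.

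The fast troponin genes had the largest positive values. Tnni2 held 2919, 3441 and 3168 CPM in untrained and 3474, 3419 and 3745 CPM in detrained libraries, with detrained replicate 2 just under the highest untrained one (log2 fold change 0.16 ± 0.09, edgeR adjusted p = 0.799). Tnnt3 stood at 0.11 ± 0.08 and Tnnc2 at 0.09 ± 0.08. Actn3 was lowest in value, with 5249, 6805 and 6260 CPM in untrained and 4972, 4644 and 6522 CPM in detrained libraries (-0.18 ± 0.15, edgeR adjusted p = 0.863). The groups overlapped in all 10 genes, where 6.19% of all genes were higher and 5.7% lower without overlap. Atp2a1, Mybpc2, Mylpf, Pvalb, Casq1 and Myoz1 lay between -0.04 and 0.09.

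Of the lists, edgeR also called no gene in the detraining comparison. The other fast sarcomere genes had a median of -0.005, with 1 of 21 at an unadjusted p under 0.05 in each direction: Eno3, the muscle enolase gene, at 0.16 ± 0.08 and Mybph, a relative of the myosin-binding proteins, at -1.67 ± 0.55 (edgeR adjusted p = 0.646). Of the coupling and calcium store genes 20 of 25 lay above 0, with a median of 0.08, 4 at an unadjusted p under 0.05 above 0 and 1 below it. Sypl2 stood at 0.24 ± 0.10, the kinase gene Camk2g at 0.19 ± 0.08 and Cacna1s, the voltage sensor gene, at -0.18 ± 0.08. Among the 31 regulators Six4, a homeobox factor of fast fibre genes, had the smallest p, at -0.62 ± 0.12 (edgeR adjusted p = 0.261), and Vgll2 and the calcineurin regulator gene Rcan1 stood at -0.46 ± 0.15 and -0.56 ± 0.19.

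Detrained replicate 3 was the highest of its group in 9 of the 10 genes, at 6522 CPM of Actn3, 4900 CPM of Mybpc2 and 26283 CPM of Atp2a1. Casq1 was the exception, with 1814 CPM in that library and 1846 CPM in replicate 1. The same library held the lowest mitochondrial share of all 15, at 16.0%, and the highest sum of adipocyte markers of its group, at 70.9 CPM. Without it the median over the members was 0.027, and Actn3 stood at -0.345.

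The difference between the 2 effects, detraining minus training, was above 0 in all 10 genes, with a median of 0.20 on the log2 scale beside 0.004 over all genes. It did not pass for any of the 10. For genes with a mean log2 CPM of 8 or more the medians were 0.02 under 1.5 kb of exon, 0.08 at 1.5 to 3 kb and 0.08 over 3 kb. EdgeR called 0 of 10, with Tnni2 and Tnnt3 at an unadjusted p under 0.05, where 4.79% of all genes were above 0 at that p. DESeq2 and limma-voom called 0 of the 10, while edgeR called 0.0268% of all genes. Tnni2 had a difference of 0.35 ± 0.13 (edgeR adjusted p = 0.410) and Tnnt3 of 0.27 ± 0.12 (adjusted p = 0.493). With the 9-month groups exchanged the median was 0.041. Of the coupling and calcium store genes 22 of 25 lay above 0, with a median of 0.16 and 8 at an unadjusted p under 0.05. In the slow fibre list, which includes Actn2 and Mybpc1, 6 of 14 lay above 0, with a median of -0.13.

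Untrained muscle of 9 months was set beside untrained muscle of 6 months. EdgeR called 0 of the 10 genes, and DESeq2 and limma-voom 0, where edgeR called 0.0134% of all genes. None of the 10 had an unadjusted p under 0.05, beside 6.72% of all genes. The median of the members was 0.04. Actn3 had the largest value, at 6105 ± 789 CPM at 9 months and 5125 ± 416 CPM at 6 months (log2 fold change 0.25 ± 0.15, edgeR adjusted p = 0.820), and Casq1 was next at 1640 ± 116 and 1464 ± 75.9 CPM. Pvalb was the 1 gene with every older library above the younger ones, where 5.34% of all genes were so, and Tnni2 the 1 gene with every older library below them, where 6.47% were so.

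The LD libraries were compared with the untrained libraries of 6 months that also served the training comparison, and here single members passed. Casq1 and Pvalb rose and Actn3 fell. EdgeR called 3 of the 10 genes, beside 4.99% of all 15181 genes tested (2.15% higher and 2.83% lower). The other 7 did not pass, and the median over all 10 was -0.006, with 5 above and 5 below 0.

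Casq1 held 2082, 1956 and 1997 CPM in the LD libraries, against 1436, 1549 and 1405 CPM in 6M_UT. The LD libraries stood above all 12 others, of which the highest, detrained replicate 1, held 1846 CPM. Its log2 fold change was 0.46 ± 0.08 (edgeR adjusted p = 0.00260), a rise of 1.37-fold. Pvalb held 5793, 4931 and 5826 CPM against 4505, 4508 and 4573 CPM, with a log2 fold change of 0.28 ± 0.08 (edgeR adjusted p = 0.0425). LD replicates 4 and 6 were above every other library, and LD replicate 5 overlapped the 9-month range. Both proteins bind calcium, calsequestrin inside the store and parvalbumin outside it.

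Actn3 held 3270, 2542 and 3229 CPM in the LD libraries, against 5596, 4968 and 4809 CPM in 6M_UT. All 3 LD values lay under those of the other 12 libraries, of which the lowest was 3498 CPM. Its log2 fold change was -0.77 ± 0.15 (edgeR adjusted p = 0.0137), which left 0.588 of the untrained level. The other Z-disc gene, Myoz1, stood at 1333, 1018 and 1247 CPM against 1404, 1270 and 1306 CPM and overlapped (-0.15 ± 0.10, edgeR adjusted p = 0.425).

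Among the members that did not pass, Mylpf lay above 6M_UT in every LD library, with 4371, 3634 and 4242 CPM against 3478, 3364 and 3561 CPM (0.24 ± 0.08, edgeR adjusted p = 0.115). Atp2a1 lay below it in every LD library, with 20650, 18670 and 20908 CPM (-0.22 ± 0.09, adjusted p = 0.155). So 3 members were higher and 2 lower without overlap, beside 12.6% and 12.7% of all genes. The 3 fast troponins lay close to 0, at -0.03 ± 0.09 for Tnnt3, 0.02 ± 0.10 for Tnni2 and 0.05 ± 0.09 for Tnnc2, and Mybpc2 stood at -0.27 ± 0.17.

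These calls differed in how far they rested on 1 library. That of Casq1 held without each library in turn (0.43 to 0.50, edgeR adjusted p = 0.00442 to 0.0155). That of Pvalb ended without any 6M_UT replicate or without LD replicates 4 or 6 (0.24 to 0.29, adjusted p = 0.0848 to 0.154). That of Actn3 ended without 6M_UT replicate 1 (-0.70, adjusted p = 0.0631) or LD replicate 5 (-0.66, adjusted p = 0.0673). Without 6M_UT replicate 1 Casq1 was the 1 member called.

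The LD libraries were also compared with 6M_PoW, the other libraries titled as trained. Casq1 and Pvalb were higher in the LD libraries here too, at 0.54 ± 0.08 (edgeR adjusted p = 8.2e-04) and 0.44 ± 0.08 (adjusted p = 0.00477). EdgeR called these 2 of the 10, beside 2.4% of all genes (1.28% higher and 1.12% lower). All LD libraries lay above all 6M_PoW libraries in both. For Actn3 all LD libraries lay below all 6M_PoW libraries, with 2542 to 3270 against 3498 to 4896 CPM, and the difference did not pass (-0.47 ± 0.15, edgeR adjusted p = 0.146, DESeq2 adjusted p = 0.0392). Without overlap 2 members were higher and 1 lower, beside 10.7% of all genes in each direction. Mybpc2 averaged 3128 CPM in both groups, and the troponins and Mylpf stood at 0.13 to 0.23 without passing. This comparison and the one with 6M_UT share the LD libraries.

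Over the 5 groups Actn3 was ordered from 6M_POW_LD (3014 ± 409 CPM) through 6M_PoW (4173 ± 700), 6M_UT (5125 ± 416) and 9M_PoW+DT (5379 ± 1003) to 9M_UT (6105 ± 789). Neighbours in that order overlapped, save 6M_POW_LD and 6M_PoW. Casq1 was ordered from 6M_PoW (1380 ± 72.6 CPM) through 6M_UT (1464 ± 75.9), 9M_UT (1640 ± 116) and 9M_PoW+DT (1728 ± 179) to 6M_POW_LD (2012 ± 64.3), where the LD group was again the 1 that stood clear of its neighbour. Pvalb had the same order as Casq1, from 4080 ± 368 through 4529 ± 38.2, 4796 ± 178 and 4981 ± 298 to 5517 ± 507 CPM, with the LD group overlapping 9M_PoW+DT. In Pvalb the 2 pairs of neighbours without overlap were 6M_PoW with 6M_UT and 6M_UT with 9M_UT.

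Other genes of the pathway moved in the LD libraries as well. Of the 21 other fast sarcomere genes edgeR called 6 against 6M_UT, 3 higher and 3 lower, beside 2.15% and 2.83% of all genes. The fast light chain gene Myl1 rose to 4808 ± 297 CPM from 3463 ± 287 CPM (0.47 ± 0.08, edgeR adjusted p = 0.00143), and the skeletal light chain kinase gene Mylk2, whose product phosphorylates the Mylpf protein, fell to 360 ± 40.7 CPM from 792 ± 69.6 CPM (-1.14 ± 0.15, adjusted p = 7.9e-04). Acta1 and Myh1 also rose, at 0.33 ± 0.07 and 0.43 ± 0.10, and Tcap and Mylk4 fell, at -0.50 ± 0.10 and -1.30 ± 0.25. Against 6M_PoW, Myl1 rose (0.39 ± 0.08) and Mylk2 fell (-1.03 ± 0.15) and the other 19 did not pass. Of all genes 1.28% were called higher there and 1.12% lower.

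The coupling and calcium store genes that passed were all higher, as Casq1 was. Against 6M_UT these were 3 of 25, namely Stac3, which couples the voltage sensor to calcium release, the channel subunit gene Cacnb1 and the triad protein gene Sypl2. Stac3 stood at 205 ± 4.86 CPM in LD and 152 ± 3.83 CPM in untrained libraries (0.43 ± 0.07, edgeR adjusted p = 0.00237), and Cacnb1 at 132 ± 6.83 and 93.8 ± 2.24 CPM (0.49 ± 0.09, adjusted p = 0.00304). Against 6M_PoW 6 of 25 rose: these 3 with Cacna2d1 (0.36 ± 0.08), the calcium sensor gene Stim1 (0.30 ± 0.07) and Hrc (0.25 ± 0.07), which codes for a calcium-binding protein of the store. Of all genes edgeR called 2.15% higher against 6M_UT and 1.28% against 6M_PoW. The list did not move as a whole against 6M_UT, with 15 genes above and 10 below 0. There 6 were higher and 3 lower at an unadjusted edgeR p under 0.05. Against 6M_PoW 19 lay above and 6 below 0, with 12 higher and 0 lower at that p. At the same p, 1475 of all 15181 genes were higher and 1562 lower against 6M_UT, and 1075 higher and 1090 lower against 6M_PoW. Over the 25 genes the median was 0.05 and 0.16 in the 2 comparisons, beside 0.008 and -0.0008 over all genes. Of the 31 fibre type regulators 1 passed in each, the large Maf factor gene Mafa, at 132 ± 5.05 CPM in LD, 56.1 ± 10.5 in 6M_UT and 51.2 ± 8.60 in 6M_PoW libraries (1.24 ± 0.16 and 1.37 ± 0.16, edgeR adjusted p = 7.7e-04 and 4.7e-04). Large Maf factors are known to drive the fast IIb myosin programme. The IIb myosin gene Myh4 itself was called in neither comparison. It averaged 36860 ± 5056 CPM in LD, 40931 ± 7352 CPM in 6M_UT and 29962 ± 4206 CPM in 6M_PoW libraries. The LD range overlapped both others.

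Several other measures differed in the LD libraries. Fibro-adipogenic markers summed to 415 to 527 CPM against 298 to 317 CPM in 6M_UT, with 3 of the 5 called higher by edgeR, and macrophage markers to 49.1 to 60.3 against 32.9 to 34.3 CPM, with 1 of 5 called higher. Endothelial markers summed to 269 to 314 against 225 to 268 CPM and the 3 Schwann cell markers to 37.8 to 105 against 27.7 to 33.0 CPM, with none called. Beside these calls, edgeR called 2.15% of all genes higher against 6M_UT. The 3 red blood cell markers overlapped, at 329 to 2043 against 214 to 586 CPM. No gene of these 5 lists was at 0 in any library. LD replicate 5 had the highest mitochondrial share of all 15, at 22.5%, and the lowest value of the LD group in all 10 members. Against 6M_UT exon length ran with direction in part of the members. Pvalb (1.04 kb) and Mylpf (1.06 kb) lay above 0, and Actn3 (2.90 kb), Atp2a1 (3.48 kb) and Mybpc2 (3.61 kb) below 0. Casq1 (1.95 kb) went against this, with the largest rise of the members, at 0.46. Myoz1 (1.89 kb) stood at -0.15. The fast troponins, with the shortest member Tnnc2 (0.8 kb) among them, lay from -0.03 to 0.05. Against 6M_PoW the long Atp2a1 and Mybpc2 stood close to 0, at -0.03 and -0.0001. Over all genes with a mean log2 CPM of 8 or more, the median log2 fold change against 6M_UT was 0.05 for 40 genes under 1.5 kb, 0.002 for 83 genes of 1.5 to 3 kb and -0.10 for 252 longer genes. Against 6M_PoW these medians were 0.07, 0.02 and 0.04. The part of cell markers, mitochondrial share and length in the member values was not tested.

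**Figure D3:**
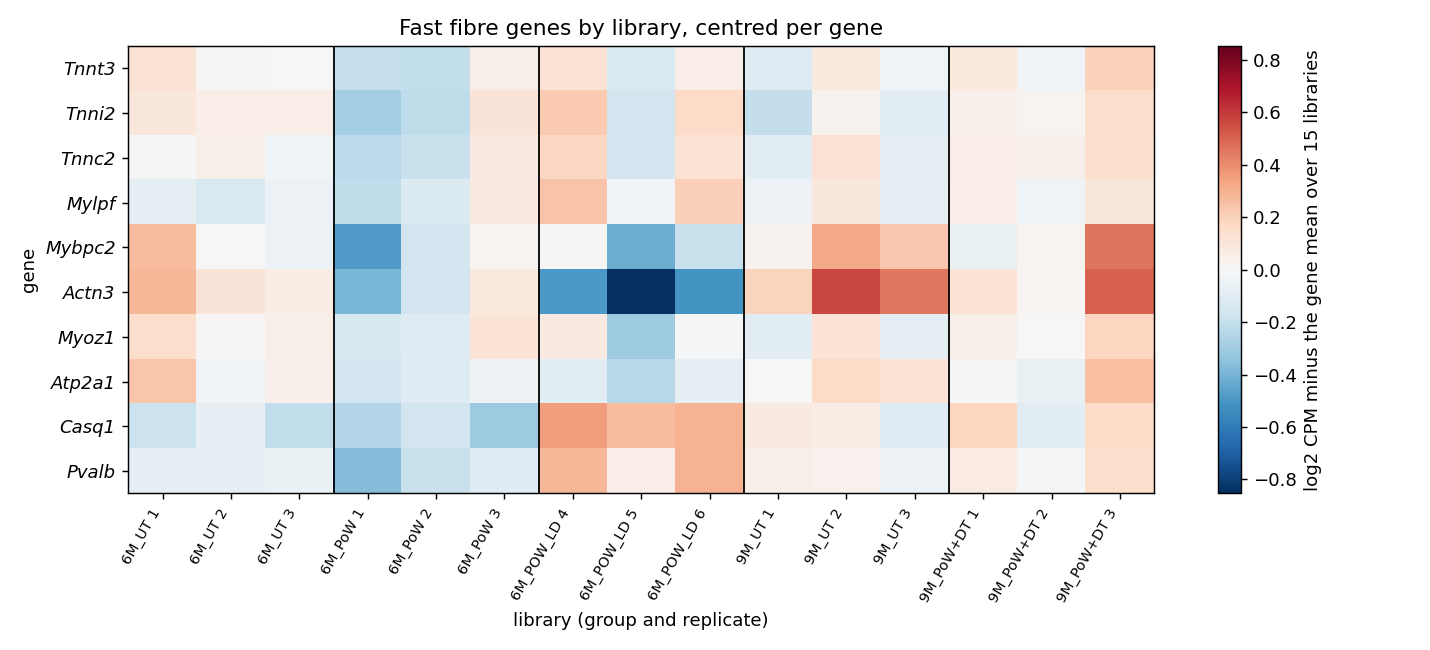
Log2 CPM of each gene (rows) minus its mean over the 15 libraries, by library (columns, groups divided by lines); red is above and blue below the mean. The LD libraries are blue for Actn3 and red for Casq1 and Pvalb (palest for Pvalb in LD replicate 5), while Actn3, Mybpc2 and Atp2a1 are red together in 6M_UT 1, 9M_UT 2, 9M_UT 3 and 9M_PoW+DT 3.

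The 10 genes fell into patterns over the libraries. The 3 troponin genes moved together, with Pearson's r of 0.92 for Tnnc2 and Tnni2, 0.91 for Tnni2 and Tnnt3 and 0.89 for Tnnc2 and Tnnt3. Actn3, Mybpc2 and Atp2a1 formed another pattern, with r of 0.92 for Mybpc2 and Atp2a1, 0.87 for Actn3 and Atp2a1 and 0.86 for Mybpc2 and Actn3. Pvalb went with Mylpf (r = 0.88) and Casq1 (r = 0.87). The patterns were not separate: r was 0.81 for Mylpf and Tnnc2, 0.72 for Tnnc2 and Pvalb and 0.71 for Tnnt3 and Mybpc2, and Myoz1 went with Tnnt3 (0.85) and Mybpc2 (0.77). The lowest of the 45 pairs were Actn3 and Casq1 at -0.35, Casq1 and Atp2a1 at -0.13 and Actn3 and Pvalb at -0.11. All r are over the 15 libraries, which share group and depth, and are given as a description.

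A mean over the members, each centred on its own average, ranged from -0.27 in 6M_PoW replicate 1 to 0.23 in 9M_PoW+DT replicate 3. Of 3368 other genes with a mean log2 CPM of 5 or more, those most like this mean over the 15 libraries were Prkab2, a subunit of AMP kinase (r = 0.92), the fast IIb myosin gene Myh4 (0.92), Arfgap2 (0.91), Rtn2 (0.90), Hhatl (0.89), Park7 (0.89), Vps33a (0.88) and Cacng1, a subunit of the muscle calcium channel (0.88). The 4 most opposed were the ketone body enzyme gene Oxct1 (-0.89), lipoprotein lipase (Lpl, -0.87), the succinate dehydrogenase gene Sdhb (-0.85) and the ketone body enzyme gene Bdh1 (-0.85). These genes were picked for their r, which is a measure of likeness and not a test.

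Of the 10 genes, 9 have a counterpart that does the same task and is found in slow fibres, called the slow counterpart here. The fast to slow ratio within a library does not depend on scaling. Of the counterparts, Mybpc1 (3085 to 4159 CPM) and Actn2 (1039 to 1520 CPM) were abundant in this mainly fast muscle. The ratios of these pairs are therefore not read as fast against slow fibres. The ratios are log2 ratios of counts, each with 0.5 added and not divided by gene length, so they are read between libraries and not between genes. The ratio lay from -0.58 to 0.52 for Mybpc2 over Mybpc1 and from 0.80 to 2.66 for Actn3 over Actn2. It lay from 3.33 to 4.94 for Myoz1 over Myoz2, 5.21 to 8.04 for Mylpf over Myl2, 5.85 to 7.22 for Casq1 over Casq2 and 6.95 to 9.43 for Atp2a1 over Atp2a2. For Tnnt3 over Tnnt1 it lay from 7.89 to 13.9 and for Tnni2 over Tnni1 from 7.34 to 12.96. Slow troponins were scarce: Tnnt1 held 0.550 to 33.2 CPM, Tnni1 0.430 to 18.0 CPM and Tnnc1 at most 22.1 CPM, down to 1 count in 9M_UT replicate 2.

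In some pairs the highest ratios came from the same libraries of 3 different groups. The 3 highest values of Tnnt3 over Tnnt1 were in 6M_UT replicate 1 (13.2), 9M_UT replicate 2 (13.9) and 9M_PoW+DT replicate 3 (12.2), and the same 3 libraries had the 3 highest values of Atp2a1 over Atp2a2 (9.43, 9.34 and 9.39). Their slow pump gene Atp2a2 stood at 37.7, 38.2 and 39.2 CPM, where the other 12 libraries held 57.4 to 177 CPM. These are also the 3 libraries highest in Actn3 and Mybpc2 within their groups. They had the 3 highest values of Casq1 over Casq2 and of Mybpc2 over Mybpc1 too. In the other pairs another library was among the 3 highest. This was LD replicate 4 for Tnni2 over Tnni1 (11.9), Mylpf over Myl2 (7.03) and Myoz1 over Myoz2 (4.36). It was LD replicate 5 for Tnnc2 over Tnnc1 (13.3) and 9M_PoW+DT replicate 1 for Actn3 over Actn2 (2.26).

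The counts and medians over the 9 pairs, here and below, include the Actn3 and Mybpc2 pairs, which are not read as fast against slow fibres. Between groups, 8 of 9 ratios had a lower mean in trained than in untrained muscle at 6 months, and every pair overlapped. The median difference was -0.27, which is the value of Actn3 over Actn2. This median rested on single libraries, at 0.011 without 6M_UT replicate 1 and -0.0093 without 6M_PoW replicate 1. In the LD libraries 8 of 9 were lower than in 6M_UT too, with a median of -0.26, which was -0.0097 without 6M_UT replicate 1. Actn3 over Actn2 was the 1 pair without overlap, at 1.5, 0.80 and 1.29 in LD and 2.11, 1.94 and 1.97 in untrained libraries, a difference of -0.81. Actn2, the alpha-actinin of all fibres, stood at 1156 to 1458 CPM in LD and 1226 to 1299 CPM in 6M_UT libraries. In detrained muscle Myoz1 over Myoz2 was the 1 pair without overlap, at 4.13 to 4.94 against 3.70 to 4.10, with Myoz2 at 46.7 to 74.4 CPM in detrained and 79.5 to 92.1 CPM in untrained libraries (edgeR log2 fold change -0.46 ± 0.16, adjusted p = 0.646). An exact permutation test of 3 libraries against 3 cannot go below p = 0.10, and no test was made of the ratios.

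**Figure D4:**
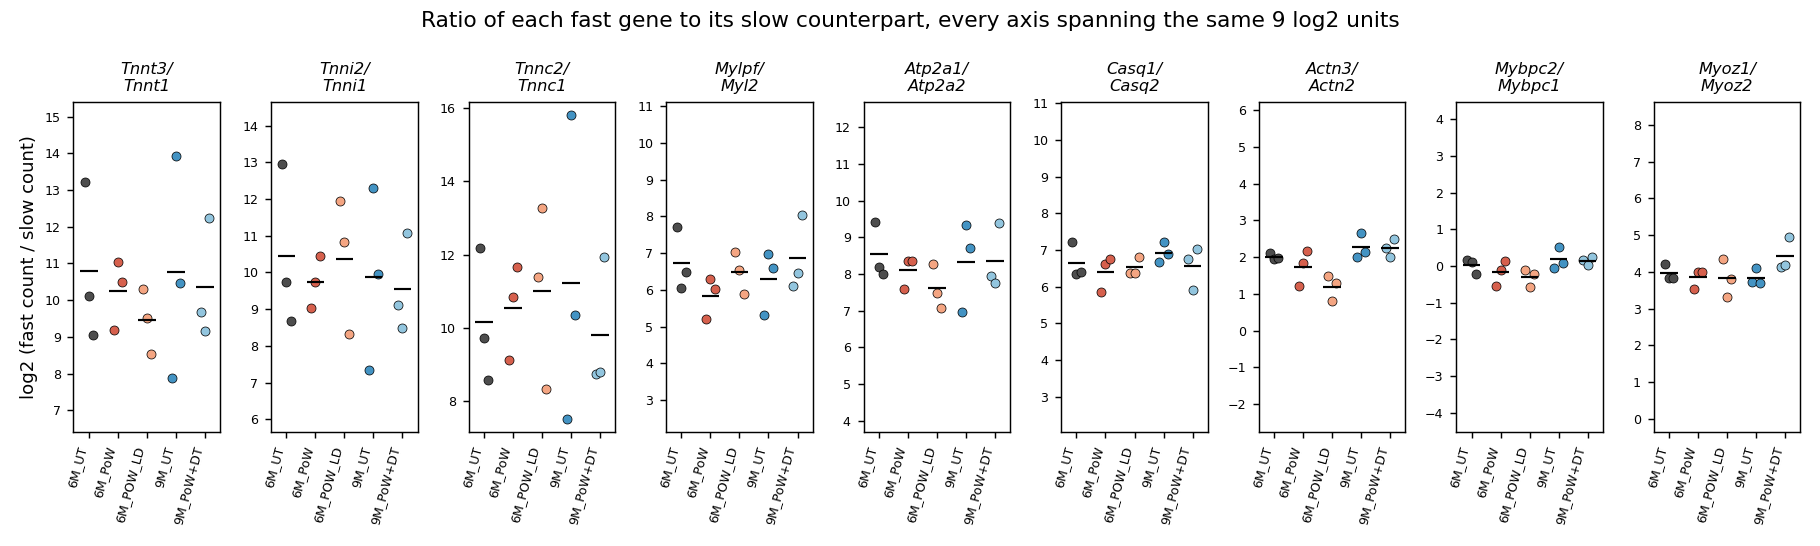
Log2 ratio of the count of each fast gene to that of its slow counterpart, each with 0.5 added, in the 15 libraries by group; points are libraries, bars group means, and every vertical axis spans 9 log2 units around its own middle. The troponin pairs spread widely within groups, Actn3 over Actn2 is lowest in the LD libraries, and the highest point of Tnnc2 over Tnnc1 rests on 1 count of Tnnc1.

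As a list, the 14 slow fibre genes had no member called in any of the 6 comparisons. The list includes Actn2 and Mybpc1, which were abundant in this mainly fast muscle. Their median was -0.11 in trained and -0.25 in detrained muscle, 0.41 at 9 against 6 months, and 0.09 and 0.37 in the LD libraries against untrained and trained ones. The largest single value after training was that of the slow light chain gene Myl2, at 0.81 ± 0.63.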

How the data were processed

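Plantaris RNA was sequenced in 15 libraries, 3 in each of 5 groups taken from the titles. The authors deposited expected counts for 20406 genes, with positions on mm10. STAR 2.7.3a, DESeq2 and Partek are named without roles, per the submitters' processing notes; no source used here gives the counting method, use of strand or annotation. Counts were rounded and rows were matched to the members by symbol. Levels are CPM with TMM factors over all 15 libraries, and lengths are exon unions of GENCODE M21. Tests were edgeR 4.0.16 quasi-likelihood fits (R 4.3.3, filterByExpr, TMM, Benjamini-Hochberg over all tested genes), on 12 libraries (14919 genes) for training, detraining, their difference and age, and on all 15 (15181 genes) for the LD libraries. A call is an adjusted p under 0.05. Of each list the called genes are named, up to 4 by smallest p and the rest after their values were seen, or, with none called in training or detraining, up to 3 by smallest p; likeness names the 8 genes of highest and 4 of lowest r. The fit was tested on simulated counts. The members and lists were chosen with earlier results of these data known. Alternatives were DESeq2 1.42.0, limma 3.58.1 (voom), other scalings, filters and group assignments, a replicate block and each library left out.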

Additional observations from a re-analysis of the deposited data

Results flagged for a closer look

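The 2 groups of libraries titled as trained and of the same age differed in Casq1 and Pvalb. Against untrained libraries Casq1 stood at 0.46 in the LD and -0.08 in the 6M_PoW libraries, and the LD libraries minus the 6M_PoW libraries gave 0.544 on the log2 scale (SE 0.0787, edgeR adjusted p = 8.2e-04), higher in 3 of 3 LD libraries. For Pvalb the values against untrained libraries were 0.28 and -0.15, and the LD libraries minus the 6M_PoW libraries gave 0.435 (SE 0.0781, edgeR adjusted p = 0.00477), again higher in 3 of 3. The tests are of the difference itself. Whether LD status, library series or the contradicted treatment labels go with it cannot be told apart. With 3 libraries a group, no library was tested for lying apart from its group.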

How the results depend on the processing

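No member was called for training, detraining, their difference or age in any alternative run, and 2 or 3 of 10 were called in each LD comparison under other scalings, filters and tests. Depth was 18865037 to 27688826 counts, and groups of 3 limit the precision. Leaving out 1 library, 1 to 2 members were called against untrained libraries (3 with all), and the median fast to slow ratio crossed 0 for training (-0.489 to 0.011), detraining (-0.49 to 0.714), age (-0.713 to 0.403) and LD against trained libraries (-0.256 to 0.0616), and reached -0.538 to -0.00973 for LD against untrained ones. The members' median crossed 0 for age (-0.00348 without 9M_UT replicate 2, to 0.0816) and for LD against untrained libraries (-0.0703 to 0.0824), and not for training (-0.21 to -0.0968), detraining (0.0212 to 0.105), the difference (0.136 to 0.27) or LD against trained libraries (0.0867 to 0.244). Genes near 0 that changed sign when 1 library was left out were, against trained libraries, Atp2a1 (-0.0608 to 0.0188), Mybpc2 (-0.127 to 0.122) and Myoz1 (-0.119 to 0.0686); against untrained, Tnnc2 (-0.0159 to 0.144), Tnni2 (-0.0599 to 0.124) and Tnnt3 (-0.0808 to 0.0411); for age, Atp2a1 (-0.0493 to 0.0853) and Tnnc2 (-0.0898 to 0.018); for detraining, Atp2a1 (-0.13 to 0.0349) and Mybpc2 (-0.221 to 0.0551); for the difference, Actn3 (-0.0479 to 0.241) and Mylpf (-0.0245 to 0.121); and for training, Mylpf (-0.0717 to 0.0711). With library totals, signs turned for detraining of Atp2a1 (0.0285) and Mybpc2 (0.0111) and for age of Atp2a1 (-0.0237), and the call of Pvalb against untrained libraries ended (0.285, edgeR adjusted p = 0.0531). Mybpc2 against trained libraries was 0.00469 with the most abundant genes left out of the scaling and 0.0028 in limma-voom. With the LD libraries joined to 6M_PoW, training gave 0.0835 for Pvalb and 0.213 for Casq1, and the difference -0.029 for Pvalb, -0.137 for Casq1 and -0.0796 for Mylpf. With them joined to 6M_UT, training gave 0.0363 for Actn3 and -0.115 for Mylpf, and the difference -0.219 for Actn3. With the 9-month groups exchanged, the median difference was 0.0412 (0.203 as titled), with -0.0552 for Mylpf, and age gave -0.0216 for Atp2a1, 0.0427 for Tnnt3, 0.00485 for Tnni2, 0.0775 for Tnnc2 and 0.00888 for Myoz1. The cause of these changes was not tested.

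Same-numbered libraries of different groups did not deviate together (r of -0.218 to 0.154 over 18 pairs of libraries, 2 of them over 0.1), so the numbers are not taken to pair them. With the replicate number as a block the members' median was -0.158 for training, 0.0663 for detraining, 0.205 for the difference and 0.0434 for age, and 0 members were called.

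Over all genes tested DESeq2 called 112, 30, 111 and 58 genes for training, detraining, the difference and age, where edgeR called 0, 3, 4 and 2, and 1190 and 675 for the LD comparisons, where edgeR called 757 and 365. Without a filter on low counts edgeR called 8 for training, 10 for the difference and 10 for age, and with the stricter one 0 for detraining and 0 for age. Limma-voom called 2 for training, 0 for the difference and 4 for age. The block gave 1 for training and 5 for age, 1 fit of all 15 libraries 4 for age, and library totals 7 for age. Joining the LD libraries to 6M_PoW gave 29 for training and 2 for the difference, joining them to 6M_UT gave 1 for the difference, and exchanging the 9-month groups gave 0 for the difference and 0 for age.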

Other observations

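The fast IIb myosin gene Myh4, the main motor of the fastest fibres and among the genes most like the members over the 15 libraries, lay lower in every trained library than in every untrained one, at 25858 to 34264 against 34562 to 48977 CPM, and did not pass (log2 fold change -0.45 ± 0.22, edgeR adjusted p = 0.552). Prkab2 and Rtn2, chosen for the same likeness, also lay lower without overlap, at -0.19 ± 0.08 and -0.24 ± 0.07 (edgeR adjusted p = 0.440 and 0.268). Of the genes most opposed to the members, Oxct1, which lets muscle burn ketone bodies, and Sdhb, a subunit of succinate dehydrogenase, lay higher in every trained library, at 0.48 ± 0.19 and 0.22 ± 0.09, and neither passed (edgeR adjusted p = 0.448 and 0.443). Myoglobin (Mb), which stores oxygen in oxidative fibres, stood at 0.36 ± 0.12 (edgeR adjusted p = 0.347), again without overlap; it was named after its value was seen. After detraining Myh4 and Prkab2 stood at -0.01 ± 0.22 and 0.01 ± 0.08, and Oxct1 and Sdhb at -0.04 ± 0.19 and 0.01 ± 0.09. These genes were picked by their likeness over libraries that include the ones compared, so their values are a description.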
